A study of Mus musculus with 3 samples.

Results

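The axon guidance ligands and receptors described here are the semaphorins with their neuropilin and plexin receptors, the ephrins with the Eph receptors, the Slits with the Robos, and the netrins with *Dcc*, *Neo1* and the Unc5 receptors. They were selected by gene symbol alone, and each of the 70 genes of these families had at least 1 probe on the array that carries one of its RefSeq transcripts. The 70 genes were measured by 90 probes, of 20145 genes that could be named through 26582 probes in all. A single probe measured 52 of them, 16 genes had 2 probes and 2 genes, *Dcc* and *Epha7*, had 3.

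Gene expression was measured with 1 array for each of 3 sorted cell populations. ES-Lhx6-GFP+ cells (ES-GFP+) and ES-Lhx6-GFP- cells (ES-GFP-) were sorted from J14 ES cells, a male line of the 129S4/SvJae strain that carries an *Lhx6*-GFP BAC transgene and a viral 692-mCherry enhancer reporter, on day 12 of a protocol that steers ES cells toward the medial ganglionic eminence (MGE). Both fractions came from pooled aggregates that had received 100 ng/ml Dkk-1, a Wnt antagonist, and then 6 nM SAG, an agonist of hedgehog signaling. MGE-Lhx6-GFP+ cells (MGE-GFP+) were sorted without culture from the MGE of female CD1 embryos at embryonic day 12.5 that carried the *Lhx6*-GFP BAC. GFP in all 3 reports the *Lhx6* transgene and not the endogenous gene, and the GFP- fraction holds every live cell of the aggregates outside the GFP gate. Strain, labelled sex, culture and the method of dissociation differ between the MGE and the ES populations and cannot be told apart from each other in these comparisons.

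Axon guidance molecules are secreted or membrane-bound cues, and receptors on growth cones and migrating neurons read them as attraction or repulsion. Slits signal through Robo receptors, netrins attract through Dcc and repel through Unc5 receptors, class 3 semaphorins bind neuropilins that signal through A plexins, and ephrins signal to Eph receptors on neighboring cells. In the ventral forebrain the same systems steer interneurons, which leave the MGE, pass around the striatum and enter the cortex, and many of the receptors serve both axons and migrating cell bodies.

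Each value is a scaled intensity, the background-subtracted spot intensity after the array's 75th percentile was set to 1000, and it can be compared for 1 gene between arrays but not between genes, since probes differ in brightness. Where 3 values follow a gene, they are those of ES-GFP+, ES-GFP- and MGE-GFP+ cells in that order. A gene was counted as higher or lower at a difference of at least 2-fold. With 1 array per population there is no replicate spread and no test was possible. Repeat spots of a probe on the same array gave the only measure of error, and 2 SDs of a difference between repeat spots came to 1.32-fold for both comparisons with ES-GFP+ cells and to 1.33-fold for MGE-GFP+ against ES-GFP- cells. Probes for sequences that mouse RNA does not hold (adenovirus E1A and ERCC) served as controls, and the 95th percentile of their scaled intensity was 504 on the ES-GFP+, 247 on the ES-GFP- and 264 on the MGE-GFP+ array. A value at or below that level is called within the control range. This level was highest on the ES-GFP+ array, where 90.6% of probes were well above background against 80.3% and 77.1% on the other two. There 86 of 106 control probes had that call as well, against 34 on each other array. The call alone therefore does not separate signal from controls. The median log2 difference of all genes was 0.27 for ES-GFP+ against ES-GFP- and -0.36 for MGE-GFP+ against ES-GFP+ cells. Scaling to the 50th percentile in place of the 75th moved every log2 difference of the first comparison by -0.44, of the second by 0.75 and of MGE-GFP+ against ES-GFP- cells by 0.30. The labels were checked with marker lists. The summed scaled intensity of 8 MGE lineage genes, among them *Lhx6*, *Nkx2-1* and *Gad1*, was 113600 in ES-GFP+, 28100 in ES-GFP- and 183000 in MGE-GFP+ cells, and that of 8 neuronal genes was 369400, 302400 and 445900. Such sums weigh bright probes most. *Snap25* gave 207900, 186700 and 256100 of the neuronal sums, and *Elavl4* was higher in ES-GFP- (12440) than in ES-GFP+ cells (7008).

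Guidance genes were expressed in all 3 populations. Of the 70, 48 exceeded the control range in ES-GFP+, 56 in ES-GFP- and 51 in MGE-GFP+ cells, with 44 above it on all 3 arrays. Another 17 exceeded it on 1 or 2 arrays, and 9 lay within it on each array, namely *Epha1*, *Epha2*, *Epha6*, *Ntn5*, *Plxnb3*, *Robo4*, *Sema3d*, *Sema7a* and *Slit3*. Of all 20145 named genes, 8306 exceeded the control range on all 3 arrays. That range reached 504 on the ES-GFP+ array against 247 and 264 on the others, so counts of single arrays are not directly comparable.

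Between the ES populations 13 of the 70 genes (18.6%) were higher in ES-GFP+ cells, against 24.0% of all genes, and 5 (7.14%) were lower, against 6.40% of all genes. With each array floored at its control range, which left 53 guidance genes with a value, 10 were higher and 4 lower, against 7.10% and 5.97% of all genes. The split depended on the scaling: it was 8 higher and 12 lower with the 50th percentile (all genes 14.9% and 13.7%) and 13 and 9 with quantile normalization (all genes 11.5% and 15.0%). MGE-GFP+ cells were higher than ES-GFP+ cells for 13 genes (18.6%, all genes 5.48%) and lower for 15 (21.4%, all genes 32.2%). With the floor, 11 of 51 were higher and 10 lower, against 7.59% and 10.1% of all genes. The 50th percentile gave 26 higher and 7 lower (all genes 26.0% and 17.1%), and quantile normalization gave 14 and 8 (all genes 14.6% and 13.7%). MGE-GFP+ cells were higher than ES-GFP- cells for 23 genes (32.9%, all genes 9.90%) and lower for 13 (18.6%, all genes 17.2%), and with the floor 19 of 59 were higher and 7 lower, against 10.5% and 10.6% of all genes. The median log2 difference over the 70 genes was 0.21, -0.07 and 0.60 in these 3 comparisons, beside 0.27, -0.36 and -0.06 over all genes. Any 2 of the comparisons share an array, so their counts are not separate evidence.

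Read across the 3 arrays, with each gene counted once, 10 of the 70 genes (14.3%) were at least 2-fold higher in MGE-GFP+ than in both ES populations, against 3.33% of 16750 genes with a value in all 3 comparisons. Another 8 (11.4%, all genes 3.05%) were higher in both GFP+ populations than in ES-GFP- cells and 3 (4.29%, all genes 2.72%) were lower in both. In MGE-GFP+ cells 9 (12.9%, all genes 11.9%) were lower than in both ES populations, and 3 (4.29%, all genes 10.1%) were higher in ES-GFP+ cells than in the other two. Of the rest, 12 passed 2-fold in another combination (17.1%, all genes 15.0%) and 25 stayed under 2-fold in every comparison (35.7%, all genes 53.3%). These counts include *Sema7a* (higher in MGE-GFP+), *Sema3d* (higher in both GFP+), *Epha2*, *Plxnb3* and *Slit3* (lower in MGE-GFP+) and *Ntn5* (higher in ES-GFP+), which lay within the control range on every array. The patterns were counted under the reported scaling alone. For genes higher in MGE-GFP+ than in ES-GFP+ cells, the gap to all genes depended on the setting. The shares were 18.6% against 5.48% as reported and 21.6% against 7.59% with the floor. They were 20.3% against 14.6% with quantile normalization and 37.1% against 26.0% with the 50th percentile. How far the pattern shares depend on the scaling was not tested.

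*Slit1* and *Slit2* were highest in ES-GFP- cells, and *Robo1* and *Robo2* in MGE-GFP+ cells. The Slits are secreted repellents of forebrain axons and migrating neurons. *Slit1* had a scaled intensity of 642 in ES-GFP+, 1934 in ES-GFP- and 185 in MGE-GFP+ cells, the last within the control range. It was thus 3.01-fold lower in ES-GFP+ than in ES-GFP- cells, with a further 3.47-fold step down to MGE-GFP+ cells. With the floor at the control range that step was a log2 difference of -1.28. *Slit2* had 1812, 3903 and 1062 in the same order, 2.15-fold lower in ES-GFP+ and 3.67-fold lower in MGE-GFP+ than in ES-GFP- cells. The difference of 1.71-fold between both GFP+ populations for *Slit2* was under 2-fold, though larger than the repeat-spot spread. Of the receptors, *Robo1* and *Robo2* had their highest values in MGE-GFP+ cells. *Robo1* had 668, 428 and 3606, so that MGE-GFP+ cells stood 5.40-fold above ES-GFP+ and 8.44-fold above ES-GFP- cells. *Robo2* had 709, 674 and 3195, or 4.51-fold and 4.74-fold higher in MGE-GFP+ cells, with no difference between the ES populations beyond the repeat-spot spread (1.05-fold). Its probes gave log2 differences of 2.75 and 1.59 between MGE-GFP+ and ES-GFP+ cells. *Robo3*, a divergent receptor known from commissural axons, had another order, with 657 in ES-GFP+, 178 in ES-GFP- (within the control range) and 281 in MGE-GFP+ cells, 3.68-fold higher in ES-GFP+ than in ES-GFP- cells. With the floor at that range this was a log2 difference of 1.41. *Slit3* and *Robo4*, the endothelial Robo, lay within the control range throughout, at most at 208 and 99.

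**Figure D1:**
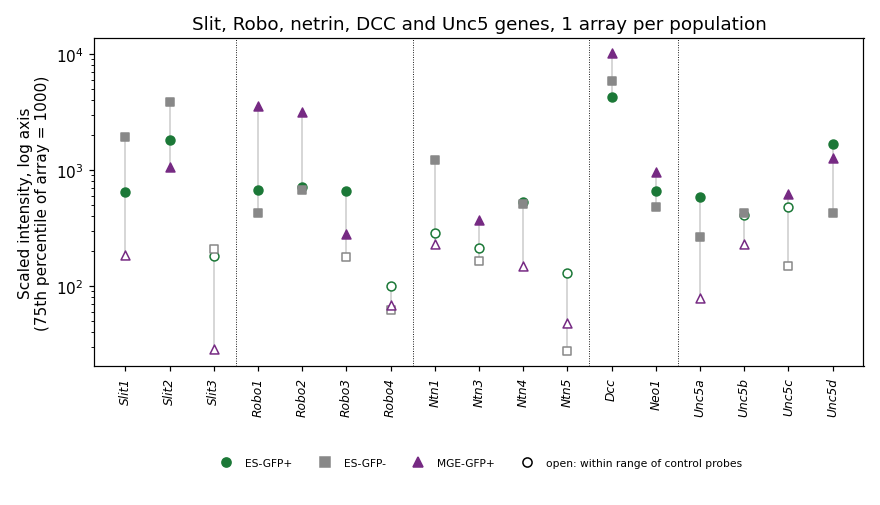
Scaled intensity (log axis, the array's 75th percentile at 1000) of the 17 Slit, Robo, netrin, DCC family and Unc5 genes, with 1 point per array: circles for ES-GFP+, squares for ES-GFP- and triangles for MGE-GFP+ cells, open where the value is within the range of control probes. The triangles of *Robo1* (3606) and *Robo2* (3195) stand above the other points, while the squares of *Slit1* (1934), *Slit2* (3903) and *Ntn1* (1221) are the highest of their genes. Heights of different genes are not comparable.

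The promoters of a ligand and a receptor from these sets are given so that their base composition can be compared. They are the 250 bases before the RefSeq transcription start on GRCm38.p6, in the direction of transcription, with matches in capitals to GGGCGG, the GC box bound by Sp1, to TAATTA, a core that homeodomain factors such as those of the Lhx and Dlx families recognize, and to CACTTG, a core of NKX2 sites, each searched on both strands.
Slit2, chr5:47982905-47983154, strand +: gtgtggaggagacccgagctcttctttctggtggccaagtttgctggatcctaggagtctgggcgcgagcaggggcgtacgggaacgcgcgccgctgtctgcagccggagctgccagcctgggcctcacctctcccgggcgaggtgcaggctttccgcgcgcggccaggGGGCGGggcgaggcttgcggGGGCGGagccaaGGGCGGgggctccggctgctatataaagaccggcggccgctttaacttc
Robo1, chr16:72662899-72663148, strand +: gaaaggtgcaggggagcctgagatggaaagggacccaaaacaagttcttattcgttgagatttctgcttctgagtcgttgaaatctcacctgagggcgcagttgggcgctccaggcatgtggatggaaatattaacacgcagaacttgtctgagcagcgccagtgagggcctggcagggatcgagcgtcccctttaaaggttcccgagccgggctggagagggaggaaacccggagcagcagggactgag
The *Slit2* window held 3 GC boxes and was 69.6% G and C, while the *Robo1* window held none of the 3 motifs and was 56.0% G and C. RefSeq windows were at hand for 60 of the 70 guidance genes, 76 windows in all, with a median of 64.4% G and C beside 52.4% over 32851 windows of all genes. GGGCGG was found in 71.1% of the guidance gene windows and in 32.7% of all windows, TAATTA in 3.95% and 4.84%, and CACTTG in 5.26% and 11.6%. A match of letters describes the window and does not show that a factor binds there.

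*Ntn1* was highest in ES-GFP- cells, and *Unc5c* and *Unc5d* were higher in both GFP+ populations. *Ntn1* encodes the attractant of the floor plate and ventral midline. Its scaled intensity was 285 in ES-GFP+ and 232 in MGE-GFP+ cells, both within the control range, and 1221 in ES-GFP- cells, which stood 4.28-fold and 5.27-fold above them. Both of its probes showed this, by log2 differences of -2.36 and -1.84 for ES-GFP+ against ES-GFP- cells. With the floor at the control range the log2 differences of *Ntn1* were -1.28 for ES-GFP+ and -1.99 for MGE-GFP+ against ES-GFP- cells. *Ntn4*, a netrin of basement membranes, had 533, 513 and 148, so it was 3.60-fold and 3.46-fold lower in MGE-GFP+ than in the ES populations. The MGE-GFP+ value was within the control range, and with the floor at that range the log2 differences were -1.02 and -0.96, the second under 2-fold. *Ntn3* had 215, 164 and 370, of which the last alone exceeded the control range, and was 2.26-fold higher in MGE-GFP+ than in ES-GFP- cells, a log2 difference of 0.58 with the floor. *Ntn5* was within the control range on every array, with 129, 27.3 and 47.5.

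Of the repulsive netrin receptors, *Unc5a*, *Unc5c* and *Unc5d* were higher in ES-GFP+ than in ES-GFP- cells, as were 24.0% of all genes. *Unc5d* had 1686 in ES-GFP+, 430 in ES-GFP- and 1261 in MGE-GFP+ cells, and *Unc5c* had 482, 150 and 617. Both GFP+ populations were therefore at least 2-fold above ES-GFP- cells, by 3.92-fold and 2.93-fold for *Unc5d* and by 3.22-fold and 4.12-fold for *Unc5c*, whose ES values were within the control range. With the floor at that range the log2 differences of *Unc5c* were 1.45 and 1.16. *Unc5a* had 592, 263 and 78.9, so it was 2.25-fold higher in ES-GFP+ than in ES-GFP- cells, a difference that passed 2-fold in 5 of 9 other settings. The *Unc5a* value in MGE-GFP+ cells was 7.50-fold below that in ES-GFP+ cells and within the control range, with a log2 difference of -1.17 with the floor at that range and of -1.56 with the deposited values. *Unc5b* had 409, 426 and 232 and stayed under 2-fold. The attractive receptor *Dcc* had 4279, 5842 and 10280, 2.40-fold higher in MGE-GFP+ than in ES-GFP+ cells, but this passed 2-fold through 1 of its 3 probes, with log2 differences of 0.81, 0.89 and 2.10. Its relative *Neo1*, a receptor of netrins and of the RGM proteins, had 664, 476 and 970, 2.04-fold higher in MGE-GFP+ than in ES-GFP- cells. The difference of *Neo1* passed 2-fold in 6 of 9 other settings.

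Summed floor plate and progenitor markers were also highest in ES-GFP- cells. All 6 floor plate genes exceeded the control range in ES-GFP- cells, 3 did in ES-GFP+ and 2 in MGE-GFP+ cells, and their summed scaled intensity was 32390, 9734 and 5267. *Spon1*, with 22170 in ES-GFP- cells, made up most of that sum, and *Shh* had its highest value elsewhere, with 3511 in ES-GFP-, 4300 in ES-GFP+ and 3936 in MGE-GFP+ cells. *Foxa2*, which defines the floor plate, had 1914 in ES-GFP- cells and was within the control range in ES-GFP+ (258) and MGE-GFP+ cells (8.69). Neural progenitor genes summed to 60980 in ES-GFP-, 12120 in ES-GFP+ and 14740 in MGE-GFP+ cells, and oligodendrocyte lineage genes to 8808, 1993 and 1755. Bright probes made up most of the ES-GFP- sums, with 20480 for *Vim*, 16780 for *Fabp7*, 14450 for *Hes5* and 4882 for *Olig2*. *Sox2* was highest in MGE-GFP+ cells, with 3729 against 3589 in ES-GFP- and 1814 in ES-GFP+ cells. *Cspg4* was within the control range on every array. The part of these cell types in the *Slit1*, *Slit2* and *Ntn1* values was not tested. In these bulk samples, fewer cells of a type and less RNA per cell cannot be told apart. Of 8 mesenchymal genes, 2 exceeded the control range in ES-GFP+, 6 in ES-GFP- and none (0) in MGE-GFP+ cells, and their summed scaled intensity was 3994, 5955 and 334. *Ntn4* and *Sema3b* were lower in MGE-GFP+ cells as well, and the part of mesenchymal cells in those differences was not tested. Of 8 endothelial genes, 2, 2 and 1 exceeded the control range in ES-GFP+, ES-GFP- and MGE-GFP+ cells, with *Cdh5* and *Pecam1* within it on each array. Those above it on at least 1 array were *Egfl7* (601, 2369 and 129), *Kdr* (190, 295 and 811) and *Esam* (508, 111.7 and 127.5).

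The semaphorins and their receptors made up 31 of the 70 genes. Both neuropilins, the ligand-binding receptors of class 3 semaphorins that sort interneurons between cortex and striatum, were higher in MGE-GFP+ than in ES-GFP- cells. *Nrp1* had a scaled intensity of 1570 in ES-GFP+, 293 in ES-GFP- and 975 in MGE-GFP+ cells, so the GFP+ populations stood 5.36-fold and 3.33-fold above ES-GFP- cells. *Nrp2* had 8161, 4794 and 13350, 2.78-fold higher in MGE-GFP+ than in ES-GFP- cells, with ES-GFP+ cells between and under 2-fold from either. Its probes, which carry accessions of separate transcripts, gave log2 differences of 1.46 and 1.49.

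Among the A plexins, the signaling partners of neuropilins, *Plxna2* had 5170, 3573 and 24530 and *Plxna4* had 1007, 983 and 2413. *Plxna2* was thus 4.74-fold and 6.86-fold higher, and *Plxna4* 2.40-fold and 2.46-fold higher, in MGE-GFP+ than in ES-GFP+ and ES-GFP- cells. *Plxna1* and *Plxna3* stayed under 2-fold. No plexin passed 2-fold between the ES populations, where 24.0% of all genes were higher and 6.40% lower in ES-GFP+ cells. The 9 log2 differences of the plexins there ran from -0.83 to 0.72. The class 4 receptors *Plxnb1* and *Plxnb2* stayed under 2-fold as well, and *Plxnb3* was within the control range on every array. *Plxnc1*, the receptor of Sema7A, was 2.99-fold higher in MGE-GFP+ than in ES-GFP- cells, while *Plxnd1* did not reach 2-fold.

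**Figure D2:**
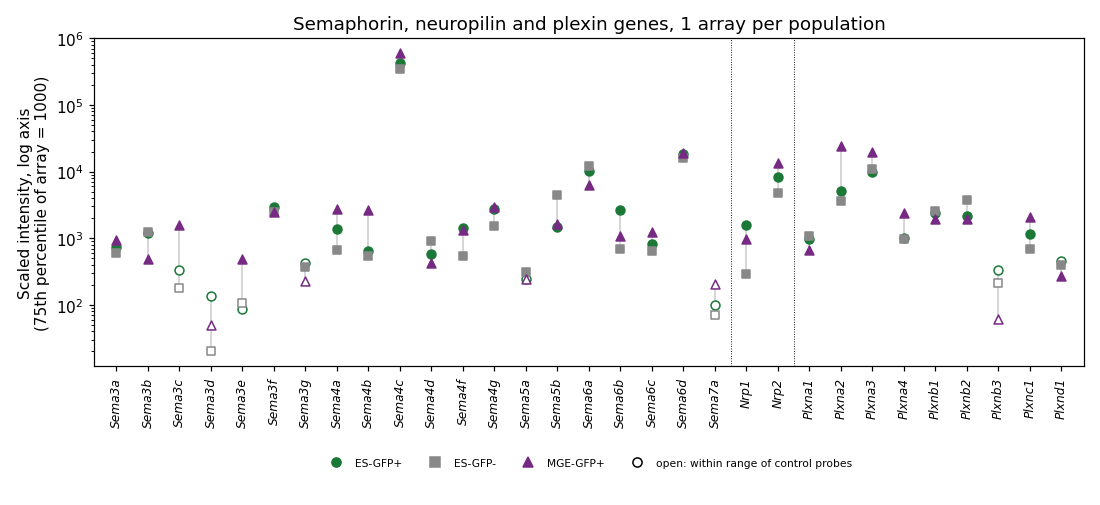
Scaled intensity (log axis, the array's 75th percentile at 1000) of the 20 semaphorins, 2 neuropilins and 9 plexins on the ES-GFP+ (circles), ES-GFP- (squares) and MGE-GFP+ (triangles) arrays, open where within the range of control probes. *Plxna2*, *Sema3c*, *Sema3e* and *Sema4b* have the triangle well above both other points, *Nrp1* has the square well below, and *Sema5b* has the square on top at 4412. Heights of different genes are not comparable.

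Of the secreted class 3 semaphorins, *Sema3c* and *Sema3e* were highest in MGE-GFP+ cells. As the mean of its probes, *Sema3c* had 338 in ES-GFP+ and 177 in ES-GFP- cells, both within the control range, and 1598 in MGE-GFP+ cells, 4.72-fold and 9.02-fold above them. Its probes disagreed on the size. One had 677, 484 and 5728, above the control range on every array, and the other had 169, 64.8 and 446, the ES values within it. Their log2 differences for MGE-GFP+ against ES-GFP+ cells were 3.08 and 1.40. *Sema3e*, the ligand of plexin D1, had 87.6, 106 and 492, the ES values within the control range, or 5.61-fold and 4.63-fold higher in MGE-GFP+ cells. With the floor at the control range the first comparison of *Sema3e* had no value and the second a log2 difference of 0.99, just under 2-fold. *Sema3b* ran the other way with 1186, 1253 and 489, 2.43-fold and 2.56-fold lower in MGE-GFP+ cells. *Sema3a* and *Sema3f*, the striatal repellents of neuropilin-bearing interneurons, had 747, 606 and 938 and 2919, 2505 and 2454, and neither passed 2-fold in any comparison. For *Sema3f* none of the differences passed the repeat-spot spread. *Sema3g* stayed under 2-fold and *Sema3d* was within the control range.

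The windows upstream of a receptor that was high in both GFP+ populations and of a ligand that was high in MGE-GFP+ cells are shown with the same motifs in capitals.
Nrp1, chr8:128358823-128359072, strand +: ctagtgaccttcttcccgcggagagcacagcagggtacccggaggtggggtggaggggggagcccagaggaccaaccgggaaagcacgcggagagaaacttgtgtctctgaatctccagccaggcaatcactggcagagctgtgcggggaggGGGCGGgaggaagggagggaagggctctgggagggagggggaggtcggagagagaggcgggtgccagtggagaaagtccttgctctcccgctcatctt
Sema3c, chr5:17574566-17574815, strand +: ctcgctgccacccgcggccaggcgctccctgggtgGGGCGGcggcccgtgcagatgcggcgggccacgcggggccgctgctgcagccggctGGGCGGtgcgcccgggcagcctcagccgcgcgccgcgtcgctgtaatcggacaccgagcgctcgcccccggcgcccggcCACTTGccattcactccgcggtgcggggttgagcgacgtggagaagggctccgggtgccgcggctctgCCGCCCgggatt
The *Nrp1* window held 1 GC box and was 64.4% G and C. The *Sema3c* window held 3 GC boxes and 1 CACTTG and was 78.4% G and C. Neither held TAATTA.

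Among the membrane-bound semaphorins, *Sema4b* had 650, 543 and 2638, so it was 4.06-fold and 4.86-fold higher in MGE-GFP+ than in ES-GFP+ and ES-GFP- cells. *Sema4a* had 1389, 670 and 2719 and *Sema4f* had 1416, 545 and 1325, and both GFP+ populations were at least 2-fold above ES-GFP- cells for each. For *Sema4a* the excess was 2.07-fold in ES-GFP+ and 4.06-fold in MGE-GFP+ cells, and for *Sema4f* it was 2.60-fold and 2.43-fold. *Sema5b*, a transmembrane repellent, was highest in ES-GFP- cells, with 1471, 4412 and 1652, or 3.00-fold and 2.67-fold lower in ES-GFP+ and MGE-GFP+ cells. Its probes went opposite ways between the GFP+ populations, by log2 differences of 0.81 and -0.48 for MGE-GFP+ against ES-GFP+ cells, so its difference there is uncertain. *Sema6b* had 2696, 696 and 1088 and was 3.87-fold higher in ES-GFP+ than in ES-GFP- and 2.48-fold higher than in MGE-GFP+ cells. The remaining class 4 to 6 genes were under 2-fold except *Sema4d*, 2.16-fold lower in MGE-GFP+ than in ES-GFP- cells. That difference passed 2-fold in 4 of 9 other settings.

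Of the 8 ephrins, 6 stayed under 2-fold between the ES populations, 5 between the GFP+ populations and 4 between MGE-GFP+ and ES-GFP- cells. The shares of all genes higher and lower were 24.0% and 6.40%, 5.48% and 32.2%, and 9.90% and 17.2% in these comparisons. *Efnb2*, a transmembrane ephrin that signals in both directions, had 2920 in ES-GFP+, 862 in ES-GFP- and 2828 in MGE-GFP+ cells, so it was 3.39-fold and 3.28-fold higher in the GFP+ populations, with 1.03-fold between these. Both probes of *Efnb2* showed this, by log2 differences of 1.82 and 1.70 between the ES populations. *Efnb3*, a repellent of MGE neurons, had 14760, 7771 and 20180 and was 2.60-fold higher in MGE-GFP+ than in ES-GFP- cells. *Efnb1* and *Efna4* stayed under 2-fold. Of the membrane-anchored A ephrins, *Efna5* had 2472, 3935 and 6202, 2.51-fold higher in MGE-GFP+ than in ES-GFP+ cells and 1.58-fold higher than in ES-GFP- cells. *Efna1* had 118, 260 and 21.1, the last not well above background, 5.59-fold and 12.3-fold under the ES-GFP+ and ES-GFP- values. The ES-GFP+ value was within the control range and the ES-GFP- value just above it, so these folds rest on signals near background, and the deposited values gave smaller log2 differences of -0.61 and -1.66. *Efna2* was 2.21-fold and 2.01-fold higher in MGE-GFP+ cells, with 3105, 3425 and 6867. These differences passed 2-fold in 5 and 7 of 9 other settings. *Efna3* had 544, 442 and 308 and stayed under 2-fold, with probes that gave log2 differences of 0.95 and -0.35 between the ES populations.

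**Figure D3:**
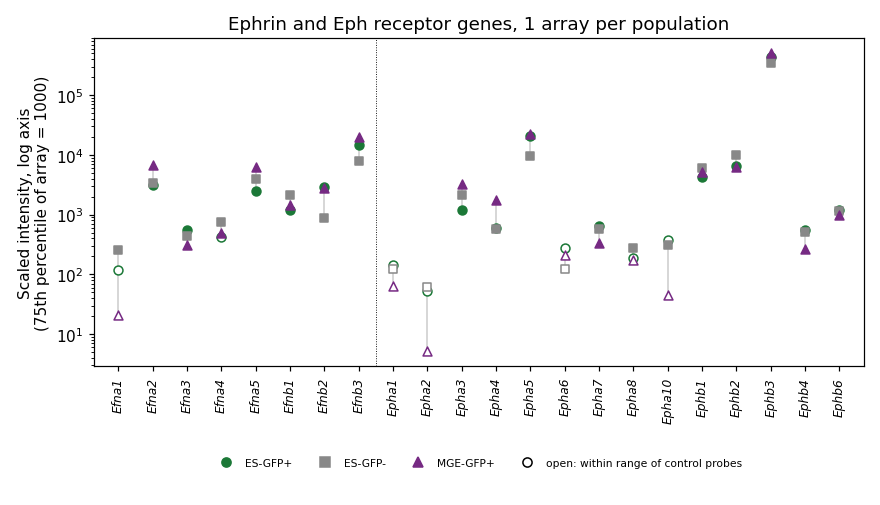
Scaled intensity (log axis, the array's 75th percentile at 1000) of the 8 ephrins and 14 Eph receptors on the ES-GFP+ (circles), ES-GFP- (squares) and MGE-GFP+ (triangles) arrays, open where within the range of control probes. The square of *Efnb2* (862) lies below its other points, the triangle of *Epha4* (1768) above them. Heights of different genes are not comparable.

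Of the 14 Eph receptors, 12 stayed under 2-fold between the ES populations, 8 between the GFP+ populations and 10 between MGE-GFP+ and ES-GFP- cells. The shares of all genes higher and lower were 24.0% and 6.40%, 5.48% and 32.2%, and 9.90% and 17.2% in these comparisons. *Epha4*, a receptor of both ephrin classes on MGE neurons, had 595, 572 and 1768, 2.97-fold and 3.09-fold higher in MGE-GFP+ than in ES-GFP+ and ES-GFP- cells. *Epha3* had 1175, 2149 and 3286, 2.80-fold higher in MGE-GFP+ than in ES-GFP+ cells, and the ES populations differed by 1.83-fold in favor of the GFP- cells. *Epha5* had 20750, 9729 and 22380, but its probes disagreed. One had 1327, 341 and 1134, a log2 difference of 1.96 between the ES populations, and the other, among the brightest 1% of probes, had 324500, 277500 and 441600 and a log2 difference of 0.23. *Epha10* had 372, 315 and 45.0, 8.25-fold and 6.99-fold lower in MGE-GFP+ cells, with the ES-GFP+ and MGE-GFP+ values within the control range. With the floor at that range the first comparison had no value and the second a log2 difference of -0.26, under 2-fold, and the deposited values gave -1.20 and -1.35. Of the 5 EphB receptors, *Ephb4* was 2.03-fold lower in MGE-GFP+ than in ES-GFP+ cells and no other passed 2-fold. Its probes gave log2 differences of -1.87 and -0.17, so the call rests on 1 of 2 probes, and it passed 2-fold in 3 of 9 other settings. *Ephb1*, which with its partners keeps MGE neurons out of the striatum, had 4223, 5997 and 5070. *Ephb3* had 432500, 338100 and 509600 and its single probe was also among the brightest 1%, of which 1.44% passed 2-fold between the ES populations. The single probe of *Sema4c* and 1 probe of *Sema6d* belonged to that group as well. *Epha7*, *Epha8*, *Ephb2* and *Ephb6* stayed under 2-fold.

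Where a gene had several probes, the sign of the difference was the same for all its probes in 12 of 18 genes for ES-GFP+ against ES-GFP- cells, in 13 of 18 for MGE-GFP+ against ES-GFP+ and in 15 of 18 for MGE-GFP+ against ES-GFP-. The median spread between the probes of a gene was 0.57, 0.72 and 0.52 on the log2 scale. This was wider than the repeat-spot spread of 1 difference (0.399, 0.402 and 0.406). A spread between probes carries the error of more than 1 difference, so that bar is a low one. Among the genes higher in MGE-GFP+ than in ES-GFP- cells, the probes of *Efnb2*, *Nrp2*, *Plxna4*, *Plxnc1* and *Unc5c* differed from each other by less than the repeat-spot spread.

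**Figure D4:**
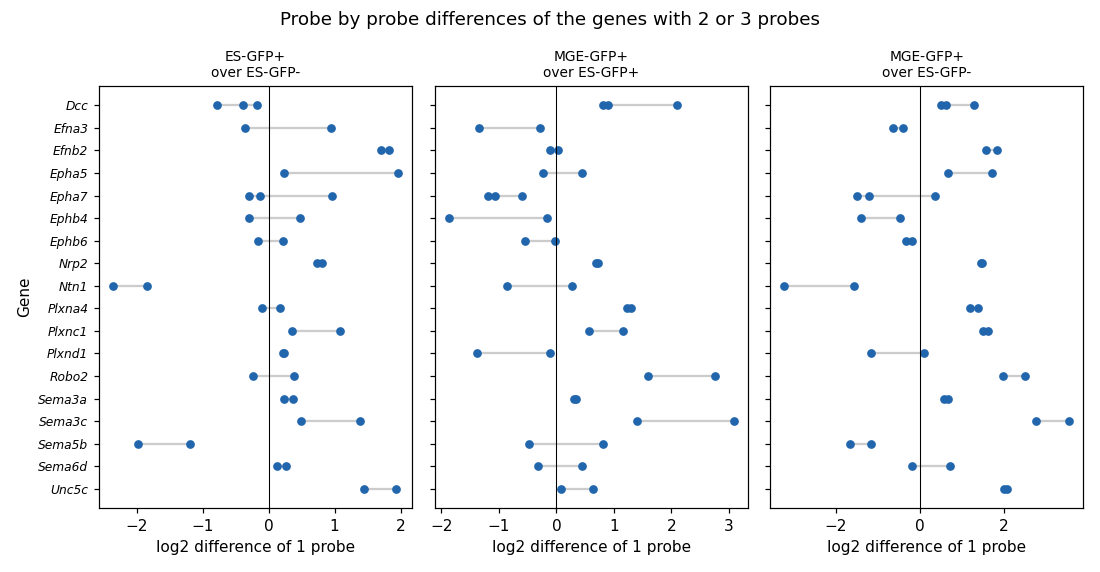
Log2 difference of each probe (x axis) for the 18 guidance genes with 2 or 3 probes, in ES-GFP+ against ES-GFP-, MGE-GFP+ against ES-GFP+ and MGE-GFP+ against ES-GFP- cells, with 1 point per probe and a line joining the probes of a gene. The probes of *Nrp2* and *Efnb2* nearly coincide, whereas those of *Epha5* lie at 0.23 and 1.96 in the left panel and those of *Sema5b* on either side of 0 in the middle panel.

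All 70 genes were compared under up to 9 other settings of scaling, background correction and filter. The floor at the control range left some genes without a value, and only genes with a value in all 9 were counted. Differences of at least 2-fold in every one of them were those of *Efnb2*, *Nrp1*, *Robo3*, *Sema6b* and *Unc5d* (higher) and *Ntn1*, *Sema5b*, *Slit1* and *Slit2* (lower) in ES-GFP+ against ES-GFP- cells. Between MGE-GFP+ and ES-GFP+ cells they were those of *Epha3*, *Epha4*, *Plxna2*, *Plxna4*, *Robo1*, *Robo2*, *Sema3c* and *Sema4b* (higher) and *Ntn4*, *Slit1* and *Unc5a* (lower). *Sema3e* (higher) and *Epha10*, *Plxnb3* and *Slit3* (lower) passed in all 8 settings that gave them a value. For MGE-GFP+ against ES-GFP- cells 16 of the 23 higher and 5 of the 13 lower genes passed 2-fold throughout, the lower ones being *Ntn1*, *Sema3b*, *Sema5b*, *Slit1* and *Slit2*, and *Efna1* and *Slit3* were lower in all 8 settings that gave them a value. How many of all genes held in this way was not counted, so these numbers do not set the guidance genes apart. Nor are the 9 settings separate checks. For a gene with a single probe well above background, dropping the filter or taking the brightest probe returned the reported value. The floor did so too where both values exceeded the control range. Keeping outlier spots moved the median of the 70 genes from 0.2097 to 0.2102 in ES-GFP+ against ES-GFP- cells. Counts of settings passed, here and above, therefore include some that could hardly differ.

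**Figure D5:**
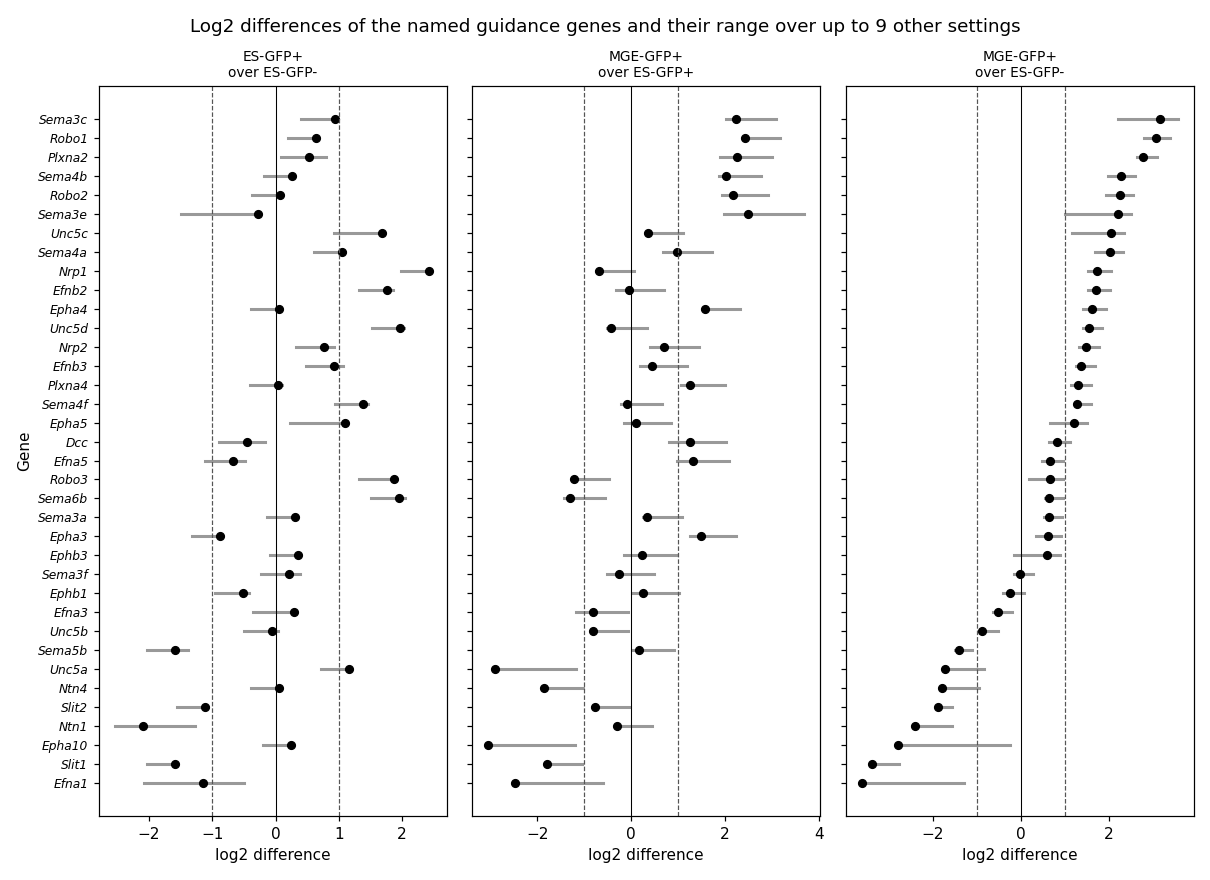
Log2 difference (x axis) of the 36 genes chosen by the fixed rule in the 3 comparisons, with the reported value as a point and the range over up to 9 other settings as a gray bar; dashed lines mark 2-fold. The bars of *Robo1*, *Robo2*, *Plxna2*, *Sema3c* and *Sema4b* stay beyond 2-fold in the middle and right panels, that of *Nrp1* in the left and right, and that of *Slit1* in all 3.

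The genes that act after the receptors were examined from a list of 48 effectors, all on the array. Of these, 3 were higher and 3 lower in ES-GFP+ than in ES-GFP- cells, 6 were higher and 3 lower in MGE-GFP+ than in ES-GFP+ cells, and 16 were higher and 4 lower in MGE-GFP+ than in ES-GFP- cells. The shares of all genes were 24.0% and 6.40%, 5.48% and 32.2%, and 9.90% and 17.2%. With the floor at the control range 1 of 39 effectors was higher and 1 lower in the first comparison, 4 of 40 and 1 in the second and 14 of 42 and 2 in the third. The floored shares of all genes were 7.10% and 5.97%, 7.59% and 10.1%, and 10.5% and 10.6%. Their median log2 differences were 0.22, 0.42 and 0.68. The members named next were picked after their values were seen. *Srgap1*, a cytoplasmic protein that binds Robo1, had 3320 in ES-GFP+, 3125 in ES-GFP- and 7053 in MGE-GFP+ cells, while *Srgap2* had 3538, 3428 and 3848 and *Srgap3* had 2660, 2746 and 2289. The adaptor *Nck1* had 691, 496 and 1649, and *Ptk2*, which encodes focal adhesion kinase, had 643, 482 and 1478. All 5 members of the CRMP family on the list, which carry semaphorin signals to microtubules, exceeded the control range on every array, and 3 of them (*Crmp1*, *Dpysl2* and *Dpysl3*) were at least 2-fold higher in MGE-GFP+ than in ES-GFP- cells.

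Of 30 co-receptors and other guidance genes, 29 were on the array. In ES-GFP+ against ES-GFP- cells 6 were higher and 3 lower, and in MGE-GFP+ against ES-GFP+ cells 2 were higher and 10 lower. In MGE-GFP+ against ES-GFP- cells 4 were higher and 7 lower. The shares of all genes without the floor were those given for the effectors. With the floor the counts were 5 and 2 of 23, 3 and 5 of 24, and 4 and 5 of 24. Beside them stand 7.10% and 5.97%, 7.59% and 10.1%, and 10.5% and 10.6% of all genes with the floor. Picked from these in the same way, *Cxcr4*, the chemokine receptor of migrating interneurons, had 4782, 15740 and 3648, with the highest value in ES-GFP- cells. The neogenin ligand *Rgma* had 9769, 18200 and 20000.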

How the data were processed

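The authors sorted the cells, amplified total RNA, labeled it with Cy3 and hybridized each population to 1 one-color Agilent mouse array. The 3 arrays shared 1 slide and 1 scan. The deposited scanner files hold spot intensity on a linear scale after background subtraction by Feature Extraction (10.7.3.1 in the file headers), not scaled between arrays. A second deposited table holds log2 values of the authors with no stated scale. Its columns, with medians of 7.69, 7.68 and 7.69, lay within 0.163, 0.315 and 0.212 of quantile-normalized log2 median intensities without background subtraction on the ES-GFP+, ES-GFP- and MGE-GFP+ arrays. It served as an alternative. The labels and the study's methods name different amplification kits, and the 62976 spots per array are those in the files.

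From the scanner files, spots with outlier flags (98 to 137 per array) were left out, and none were saturated. The 75th percentile of log2 intensity was subtracted per array and repeat spots were averaged. A probe without the well-above-background call on at least a 0.5 share of spots was raised to the lowest value with that call on its array, and the probes of a gene were averaged. Names came from the accession of each probe through a RefSeq gene table, which matched 26582 of 55681 probes. Repeat-spot SDs came from 305 to 358 probes with at least 5 spots. The number of arrays, 1 per population, limits the precision. The 75th percentile scaling and the gene means were tested on simulated arrays in which every probe counted as well above background. The floors and the other settings were not tested in this way. Python 3.11.15, pandas 2.3.3, numpy 2.4.6, R 4.3.3 and limma 3.58.1 were used.

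Genes given with all values were the 12 members with the largest difference in each comparison whose brighter array exceeded the control range, 19 members with a known part in migration of ganglionic eminence neurons, and members with probes of opposite and clear sign. Other members were added for completeness after their values were seen. The members and lists were chosen with earlier results of these data known.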

Additional observations from a re-analysis of the deposited data

How the results depend on the processing

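The count of higher genes was 13 in ES-GFP+ against ES-GFP- cells and became 8 with 50th percentile scaling, 8 with the deposited log2 values and 3 at 4-fold, while the 5 lower genes became 12 with 50th percentile scaling, 9 with quantile normalization and 1 at 4-fold. In MGE-GFP+ against ES-GFP+ cells the 13 higher genes became 26 with 50th percentile scaling and 6 at 4-fold, and the 15 lower genes became 7 with 50th percentile scaling, 8 with quantile normalization, 8 with the deposited values, 8 with normexp on median signal (an alternative chosen after seeing the data) and 5 at 4-fold. In MGE-GFP+ against ES-GFP- cells the 23 higher genes became 8 at 4-fold, and the 13 lower genes became 7 with the floor at the control range and 5 at 4-fold. Shares of all genes were not counted at 4-fold, with the deposited values or with normexp. Those counts therefore do not set the guidance genes apart. The median log2 difference of the 70 genes turned from 0.21 to -0.23 (50th percentile) and was 0.000716 with quantile normalization in the first comparison, turned from -0.07 to 0.68 (50th percentile), 0.0366 (quantile) and 0.11 (control floor) in the second, and went from 0.60 to 0.91, 0.31 (quantile) and 0.15 (deposited values) in the third. Part of these shifts is the scaling itself, and a higher fold or floor leaves fewer genes by construction. The cause of the others was not tested. For the 36 genes named by rule, 673 of 961 values moved by less than 1 SD of a difference between repeat spots (0.20 on the log2 scale), 288 moved further and 0 of those at 2-fold turned direction. These counts were partly fixed in advance. Many of these genes were picked for large differences in the reported setting, and some settings leave a value unchanged by construction. Among the 15 genes lower in the second comparison, 12 kept their direction in every setting that gave a value. Normexp on the mean signal was not run, since the files used here hold median signals. No paired analysis was possible because each population had 1 array and no result comes from a test.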
